A study of Mus musculus with 8 samples.

Results

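The transcription factor Atf4 and 38 genes of the amino acid response were measured by RNA sequencing in C3H10T1/2 cells, a mesenchymal line that was derived from mouse embryos of the C3H strain and can form osteoblasts and adipocytes. The 39 genes were picked by name, and each was found by its symbol among the 18605 genes of the expression table. Before they were picked, Atf4 and the mitochondrial enzyme gene Pck2 were known to be higher in cells with an shRNA against Nap1l2 than in control cells after 7 days of induction, so the values of that comparison are given as a description. The other comparisons of 7-day libraries share libraries with it. The comparison at day 0 shares none, but the choice of the 39 genes was made with earlier results of these data known, so its counts over the genes are no independent evidence either.

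There were 4 groups of 2 libraries. Cells of the NC group carried a non-target control, and cells of the KD-Nap1l2 group carried a lentiviral shRNA against Nap1l2, a member of the nucleosome assembly protein family. Both were kept at day 0, without induction, in DMEM with 10% FBS. The NC-7day and KD-Nap1l2-7day groups were the same cells after 7 days in osteogenic medium, which holds dexamethasone, ascorbic acid and beta-glycerol phosphate. All groups came from this 1 established line, and the sources used here do not say which shRNA was used, whether the 2 libraries of a group came from separate cultures, or whether the infected cells were a pool or a clone. The tests below therefore measure the spread between libraries, which may be technical. In bulk RNA of this kind, fewer cells of a type and less RNA per cell cannot be told apart.

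Atf4 is a basic leucine zipper factor of the integrated stress response. When an amino acid runs short or unfolded protein builds up, kinases phosphorylate the initiation factor eIF2, most translation slows, and the Atf4 message is translated better. Atf4 then pairs with Cebp proteins on C/EBP-ATF composite elements and raises genes for amino acid synthesis, amino acid uptake and tRNA charging. In osteoblasts, Atf4 is known for its part in collagen production and in late differentiation. Since much of its control is at translation, the level of Atf4 mRNA is not a measure of Atf4 protein.

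The promoters were searched for the core of the C/EBP-ATF composite element, and sequences of some that hold it are shown. RefSeq promoters (GRCm38.p6), running from 250 bases before to 50 bases after the start site, were matched for 31 of the 39 genes. No promoter was matched for Cth, Slc7a5, Slc7a3, Slc1a5, Cars, Lars, Nars and Wars. The core searched was TGATGNAA on both strands, which reads TTNCATCA on the other strand. It was found in 14 of the 31 genes (45.2%), in 4.51% of the 27025 genes with a promoter in the table, and in 2.99% of the 10651 of those that were tested for expression. By role, it was found in 3 of 4 stress effectors, 5 of 8 tRNA synthetases, 2 of 5 transporters, 3 of 9 enzymes and 1 of 5 transcription factors. These genes were chosen as amino acid response genes, so a high share describes the choice, and a match is not a measured binding site.

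The windows below are of 30 bases, are read 5′ to 3′ on the strand of the gene, and have the match in capitals. They were chosen from the genes that hold the core and have values in the text. Aars is among the genes with a match that are not shown, and Atf4, Ddit3 and Psat1 held no match.
Asns, chr6:7693214-7693243, minus strand: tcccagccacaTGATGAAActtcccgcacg
Chac1, chr2:119351038-119351067, plus strand: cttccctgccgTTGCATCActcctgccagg
Trib3, chr2:152344028-152344057, minus strand: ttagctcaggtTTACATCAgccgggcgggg
Atf3, chr1:191183425-191183454, minus strand: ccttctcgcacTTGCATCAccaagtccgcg
Nupr1, chr7:126625562-126625591, minus strand: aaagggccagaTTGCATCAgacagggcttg
Pck2, chr14:55540152-55540181, plus strand: agccttcaaagTTACATCAgtatcttacag
Pycr1, chr11:120643833-120643862, minus strand: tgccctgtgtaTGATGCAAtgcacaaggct

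Slc7a11 held a pair of matches. They lie on opposite strands, starting 66 and 47 bases before the start site, as the 250 bases before that start show (chr3:50443614-50443863, minus strand, matches in capitals):
Slc7a11: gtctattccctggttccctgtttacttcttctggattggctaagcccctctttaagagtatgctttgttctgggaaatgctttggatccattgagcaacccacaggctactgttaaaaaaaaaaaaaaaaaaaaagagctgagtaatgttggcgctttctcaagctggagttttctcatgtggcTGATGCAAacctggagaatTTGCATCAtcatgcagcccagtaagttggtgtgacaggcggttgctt

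The libraries held 17420284 to 19427359 estimated counts each, and levels are given as CPM, the count of a gene divided by the library total after TMM scaling and multiplied by 1000000, with replicate 1 before replicate 2. Nap1l2 itself had 2 to 15 counts in each library. Its log2 fold change was 0.64 (SE 0.98) in the libraries labelled KD-Nap1l2 against NC and -0.0012 (SE 0.80) after 7 days, so that a knockdown was not detectable at this depth and every direction below rests on the labels. The study checked its shRNAs in this line by western blot and qPCR, which are not part of these data. Of the 12 mesenchymal markers, all were in the table, and their summed level was 20209 to 28182 CPM at day 0 and 11846 to 15498 CPM after 7 days. Of these 12, Nt5e was under 10 counts in every library (0 to 0.18 CPM), and Thy1 had 0.998 to 10.4 CPM. The 4 endothelial and 4 epithelial markers summed to 1.32 to 8.47 CPM. The 4 leukocyte markers in the table, of 6 listed, summed to 3.54 to 5.65 CPM in the 3 other groups and to 7.20 to 11.5 CPM in KD-Nap1l2-7day, with 3 of the 4 under 10 counts in every library and none at 0 in all of them. The 4 adipocyte markers summed to 5.53 to 15.9 CPM at day 0 and to 82.6 to 112 CPM after 7 days, nearly all of it Fabp4. The 6 osteoblast markers summed to 1620 to 1793 CPM at day 0 and to 2085 to 5381 CPM after 7 days, nearly all of it Spp1. Of these 6, Sp7, Alpl, Ibsp and Bglap were near the floor on both days, at 0 to 1.26 CPM in every library. Runx2, the master factor of osteoblasts, had 72.5 to 91.5 CPM at day 0 and 53.5 to 64.3 CPM after 7 days. The part of these cells in the results was not tested.

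Of the 39 genes, 38 passed the filter on low counts. Stc2, a secreted glycoprotein of the stress response, did not, with 0 to 11 counts in the 8 libraries. Per length of gene, the highest means over the 8 libraries were those of Atf4 (179.9 FPKM, 125 to 321), Slc3a2 (162 FPKM, 131 to 223), Atf5 (143 FPKM, 78.8 to 231), Ddit3 (140.4 FPKM, 53.2 to 243) and Nupr1 (114 FPKM, 50.3 to 272), and all 5 ranges overlapped. Atf4 and Slc3a2 were level in NC, with means of 138.8 and 139.7 FPKM, and in KD-Nap1l2, with 165.5 and 165.2 FPKM. The first place of Atf4 came from KD-Nap1l2-7day, where the means were 273.8 and 204 FPKM. The lowest tested genes were Slc7a3 (0.47 FPKM) and Slc7a11 (1.18 FPKM), both transporters, then Cth (3.06 FPKM) and Atf3 (3.89 FPKM).

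**Figure D1:**
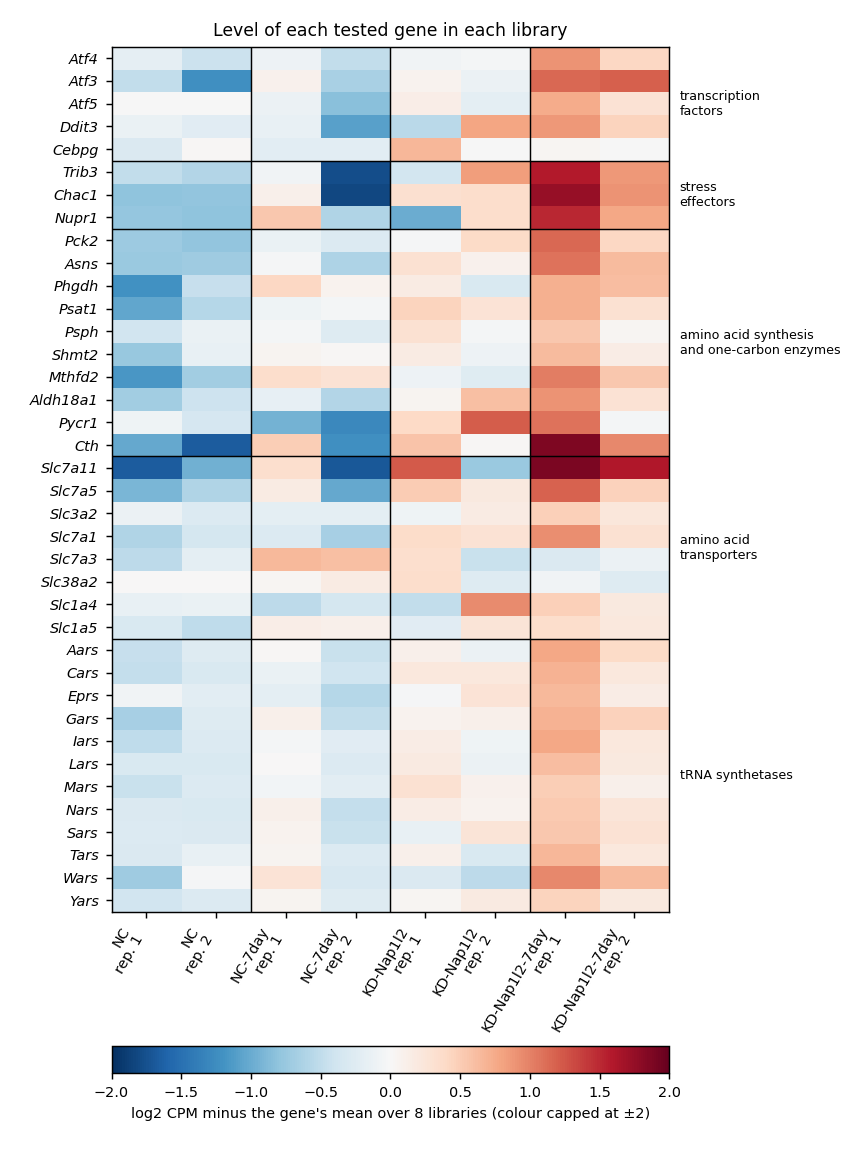
Level of each of the 38 tested genes (rows, by role) in each of the 8 libraries (columns), as log2 CPM minus the gene's mean over the libraries. KD-Nap1l2-7day replicate 1 was the highest library for 32 of the 38 genes, and NC replicate 1 and NC-7day replicate 2 were the lowest for 16 and 12.

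At day 0, most of these genes stood higher in the libraries labelled KD-Nap1l2 than in NC. The log2 fold change was above 0 for 36 of 38, against 51.5% of the 13470 genes tested, with a median of 0.51 against 0.011 over all genes. Both KD-Nap1l2 libraries lay above both NC libraries for 29 of the 38, against 22% of all genes. For none of them did both lie below, against 21.2% of all genes. By edgeR's quasi-likelihood test, none of the 38 passed an adjusted p of 0.05, where 0.0223% of all genes were called higher. At an unadjusted p under 0.05 there were 17 of 38, against 7.02% of all genes. DESeq2's Wald test called 7 as higher, against 1.5% of genes: Pck2, Asns, Psat1, Mthfd2, Aldh18a1, Slc7a5 and Slc7a1. Leaving out any 1 library gave a median of 0.45 to 0.58. The lowest log2 fold changes among genes averaging at least 50 counts were -0.067 for Wars, -0.018 for Atf5 and 0.062 for Slc38a2.

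After 7 days, in the comparison that lies behind the choice of genes, both KD-Nap1l2-7day libraries lay above both NC-7day libraries for 36 of 38 genes (21% of all genes) and below them for Slc38a2 and Slc7a3 (21%). The median log2 fold change was 0.77, against -0.0056 over all genes. It was 0.55 without KD-Nap1l2-7day replicate 1 and 0.93 without NC-7day replicate 1. The lowest values among genes averaging at least 50 counts were -0.26 for Slc38a2, 0.17 for Slc1a5 and 0.22 for Cebpg. Past an adjusted p of 0.05 DESeq2 had 10 of the 38 genes, all higher (0.276% of all genes), and edgeR 0 (0% of all genes). Since the genes were chosen on this comparison, nothing is read from these counts.

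**Figure D2:**
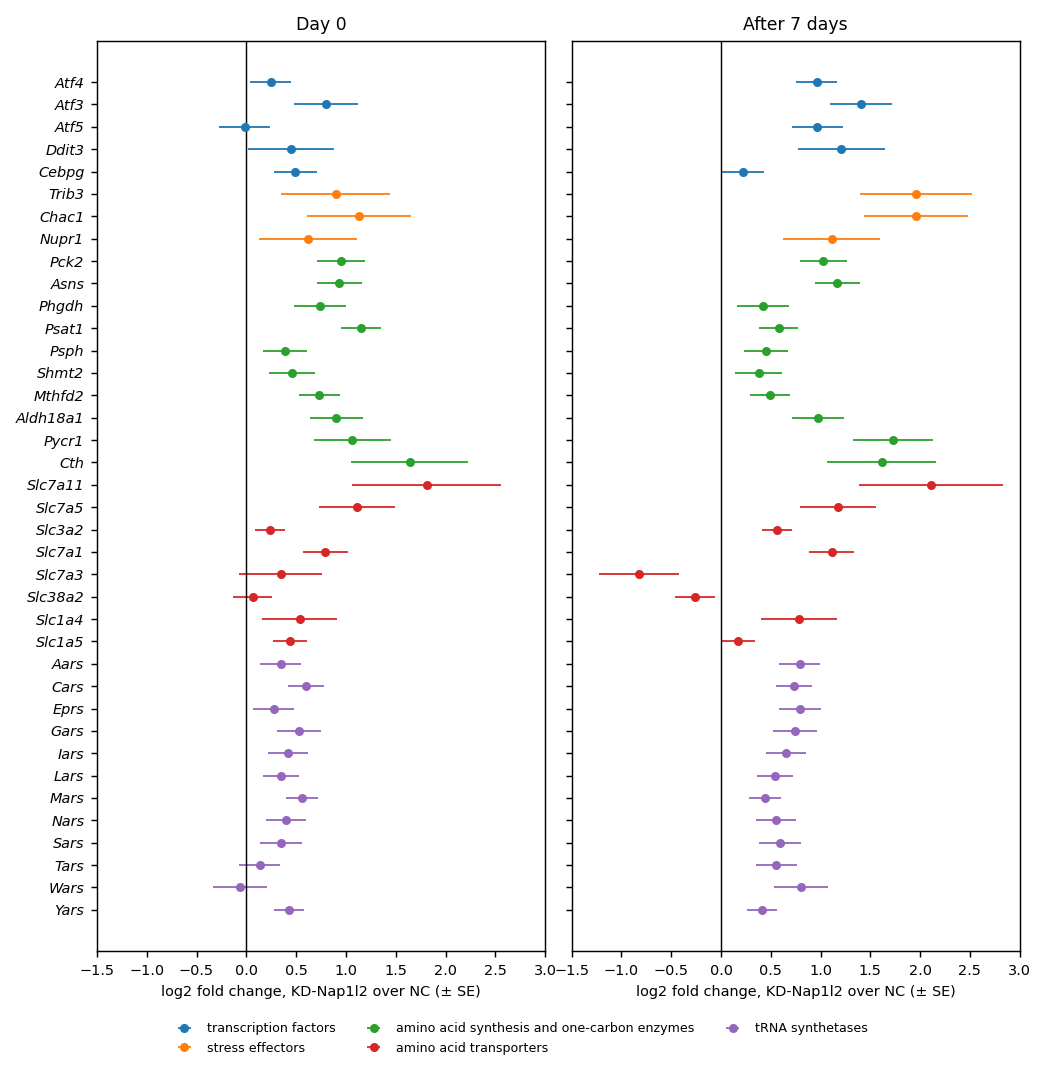
Log2 fold change of each tested gene in KD-Nap1l2 over NC libraries at day 0 (left) and after 7 days (right), with its standard error from the edgeR fit on 2 libraries a group; colours mark roles. At day 0 the points at or below 0 are Atf5 and Wars, and after 7 days they are Slc7a3 and Slc38a2.

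Among the transcription factors, Atf4 (chr15:80255184-80257545) differed little between the groups other than KD-Nap1l2-7day. It had 232 and 194 CPM in NC, 246 and 186 CPM in NC-7day, 249 and 256 CPM in KD-Nap1l2, and 489.7 and 349.7 CPM in KD-Nap1l2-7day. The KD-Nap1l2-7day libraries thus stood above the 6 others, while the NC and NC-7day libraries overlapped. At day 0 its log2 fold change against NC was 0.25 (SE 0.21, adjusted p = 0.651 by edgeR), and after 7 days the described value was 0.96 (SE 0.21). The RefSeq transcript NM_001287180.1 took 61.3% to 64.4% of the Atf4 count in every library, and NM_009716.3 took the rest.

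Ddit3 (chr10:127290793-127296291), which codes for the stress-induced factor Chop, differed between the replicates of NC-7day and of KD-Nap1l2. Its levels were 108 and 101 CPM in NC, 107 and 55.6 CPM in NC-7day, 81.2 and 204 CPM in KD-Nap1l2, and 215 and 159.9 CPM in KD-Nap1l2-7day. The KD-Nap1l2 libraries lay on both sides of the NC libraries, and the log2 fold change at day 0 was 0.45 (SE 0.43, adjusted p = 0.697 by edgeR). It turned to -0.36 without KD-Nap1l2 replicate 2. After 7 days it was 1.21 (SE 0.44). The end of Ddit3 overlaps the start of the annotated span of Mars, the gene of methionyl-tRNA synthetase, and the counting is not stated to use strand, so their reads may be split with error.

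Atf3, a stress-induced repressor, was a low gene with 4.70 and 2.82 CPM in NC, 6.98 and 4.20 CPM in NC-7day, 6.97 and 6.10 CPM in KD-Nap1l2, and 14.6 and 15.0 CPM in KD-Nap1l2-7day. Its KD-Nap1l2-7day libraries were close together and above the rest. Atf5, a factor related to Atf4 and controlled in the same way, had a day 0 log2 fold change of -0.018 (SE 0.25, adjusted p = 0.985 by edgeR), and 0.97 (SE 0.26) after 7 days. Cebpg, a partner of Atf4 on the composite element, ranged from 58.2 to 113 CPM, with its highest level in KD-Nap1l2 replicate 1.

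The stress effectors spread more widely between the replicates than the other roles in each group but NC. Trib3 (chr2:152337425-152344060), a pseudokinase that restrains Akt and Atf4, had 22.7 and 21.2 CPM in NC, 30.3 and 9.35 CPM in NC-7day, 24.8 and 56.9 CPM in KD-Nap1l2, and 95.3 and 58.1 CPM in KD-Nap1l2-7day. Its KD-Nap1l2-7day libraries were the highest, with KD-Nap1l2 replicate 2 only just below. The log2 fold change was 0.90 at day 0 (SE 0.55, adjusted p = 0.527 by edgeR), falling to 0.18 without KD-Nap1l2 replicate 2, and 1.96 (SE 0.56) after 7 days, where leaving out 1 library gave 1.34 to 3.04. At day 0 the size of the difference rested on KD-Nap1l2 replicate 2.

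Chac1 (chr2:119351242-119354326) codes for an enzyme that cleaves glutathione. It was even between replicates at day 0, with 8.80 and 8.86 CPM in NC and 19.1 and 19.5 CPM in KD-Nap1l2. After 7 days it had 16.4 and 4.36 CPM in NC-7day and 51.3 and 28.7 CPM in KD-Nap1l2-7day. At day 0 the groups were apart by far more than their replicates, with a log2 fold change of 1.13, yet the standard error of the fit across groups was 0.52 and the adjusted p was 0.391 by edgeR. After 7 days the value was 1.96 (SE 0.52), with 1.29 without NC-7day replicate 2 and 3.20 without NC-7day replicate 1. Nupr1, a small stress-induced chromatin protein, had 33.4 and 32.7 CPM in NC, 82.8 and 37.4 CPM in NC-7day, 28.8 and 72.9 CPM in KD-Nap1l2, and 162 and 97.6 CPM in KD-Nap1l2-7day, so that the day 0 groups overlapped.

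**Figure D3:**
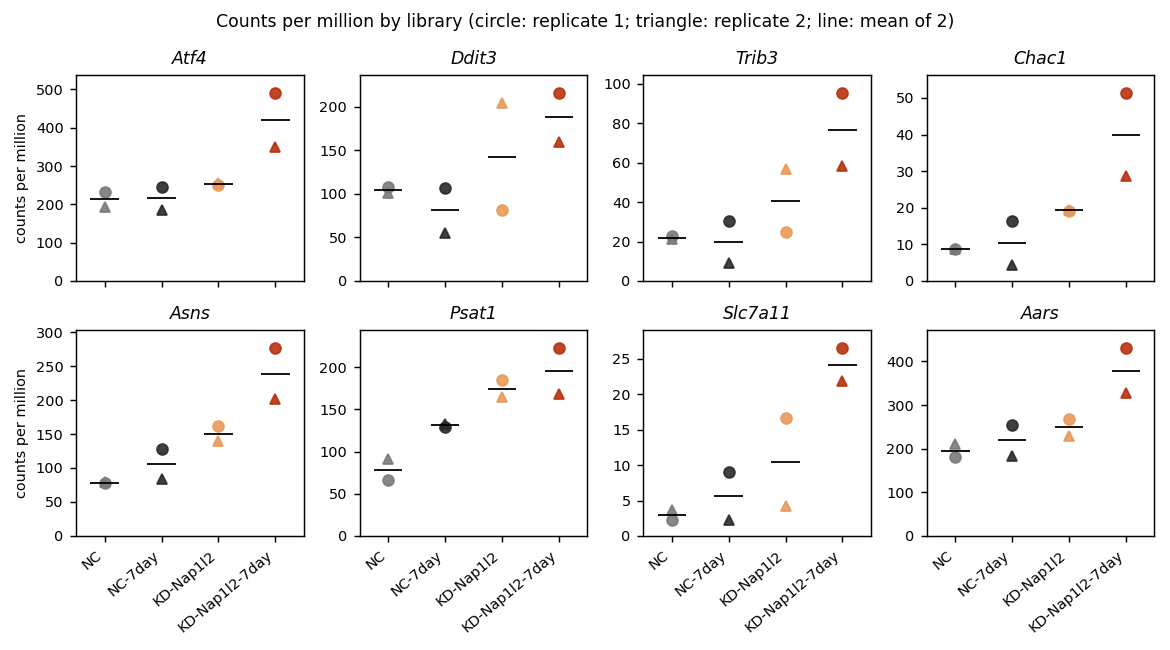
CPM of 8 genes in every library, by group; circles are replicate 1, triangles replicate 2 and lines the mean of 2 libraries, on linear axes that start at 0. For Asns and Psat1 both KD-Nap1l2 libraries lie above both NC libraries (139 and 161 against 77.8 and 79.3 CPM for Asns), while for Ddit3 they lie on both sides.

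The enzymes of amino acid synthesis and one-carbon metabolism were the role in which the day 0 groups were most clearly apart. For 10 of 10 enzymes both KD-Nap1l2 libraries lay above both NC libraries (22% of all genes), the median log2 fold change was 0.92, and 5 of the 7 genes called by DESeq2 at day 0 were enzymes. Asparagine synthetase, Asns (chr6:7675165-7693209), had 77.8 and 79.3 CPM in NC, 128 and 84.5 CPM in NC-7day, 161 and 139 CPM in KD-Nap1l2, and 276 and 201 CPM in KD-Nap1l2-7day. The groups did not overlap within either day. Its log2 fold change at day 0 was 0.93 (SE 0.23), with an adjusted p of 0.147 by edgeR and 0.00458 by DESeq2, and 1.17 (SE 0.23) after 7 days.

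Serine synthesis runs through Phgdh, Psat1 and Psph, and Shmt2 and Mthfd2 carry the serine carbon into the mitochondrial folate pool. Psat1 (chr19:15905123-15925059) had 66.0 and 91.4 CPM in NC, 129 and 133 CPM in NC-7day, 185 and 165 CPM in KD-Nap1l2, and 223 and 169 CPM in KD-Nap1l2-7day. It had the lowest adjusted p of the 38 genes at day 0, 0.0837 by edgeR and 1.83e-05 by DESeq2, with a log2 fold change of 1.15 (SE 0.20). After 7 days the value was 0.58 (SE 0.19). The NC libraries were thus the low group for Psat1, and the other 3 groups lay between 129 and 223 CPM. Phgdh had 49.0 and 81.8 CPM in NC and 127 and 92.0 CPM in KD-Nap1l2.

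Pck2, which makes phosphoenolpyruvate in mitochondria, had 47.4 and 45.7 CPM in NC, 72.1 and 64.9 CPM in NC-7day, 77.5 and 102 CPM in KD-Nap1l2, and 174 and 105 CPM in KD-Nap1l2-7day. The 2 groups did not overlap on either day, with log2 fold changes of 0.95 (SE 0.24, adjusted p = 0.154 by edgeR) at day 0 and 1.03 (SE 0.24) after 7 days, the latter 0.62 without KD-Nap1l2-7day replicate 1. Aldh18a1 and Pycr1 make proline, an amino acid abundant in collagen. Pycr1 had 20.1 and 16.8 CPM in NC, 11.1 and 8.72 CPM in NC-7day, 27.9 and 49.3 CPM in KD-Nap1l2, and 45.0 and 20.6 CPM in KD-Nap1l2-7day. Cth, which makes cysteine from cystathionine, was low but apart at day 0, with 2.00 and 1.28 CPM in NC and 6.06 and 4.16 CPM in KD-Nap1l2. Its log2 fold change was 1.64 (SE 0.59, adjusted p = 0.276 by edgeR).

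The transporters were the least uniform role. Slc7a11 (chr3:50364936-50499087), the cystine-glutamate exchanger of system xc-, had the largest fold change of the 38 genes in both comparisons and also one of the largest spreads. It had 2.27 and 3.69 CPM in NC, 9.03 and 2.21 CPM in NC-7day, 16.7 and 4.28 CPM in KD-Nap1l2, and 26.5 and 21.8 CPM in KD-Nap1l2-7day. KD-Nap1l2 replicate 2 lay only just above the NC libraries. The log2 fold change at day 0 was 1.81 (SE 0.75, adjusted p = 0.343 by edgeR), with 0.52 without KD-Nap1l2 replicate 1, and 2.11 (SE 0.72) after 7 days, with 1.42 without NC-7day replicate 2 and 3.45 without NC-7day replicate 1.

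Slc7a5 and Slc3a2 form the exchanger LAT1-4F2hc for large neutral amino acids. Slc7a5 had 42.5 and 52.6 CPM in NC, 89.6 and 39.4 CPM in NC-7day, 114 and 91.8 CPM in KD-Nap1l2, and 181 and 110.2 CPM in KD-Nap1l2-7day, so that it was apart at day 0. Its partner Slc3a2 had a narrower range, from 301 to 510 CPM over the 8 libraries. Slc7a1, the arginine and lysine carrier, ranged from 30.1 to 39.3 CPM in the 4 NC and NC-7day libraries and from 57.8 to 90.8 CPM in the 4 others, with no overlap. Slc38a2, the sodium-coupled neutral amino acid transporter induced by starvation, did not follow: it had 302 and 302 CPM in NC, 306 and 336 CPM in NC-7day, 380 and 249 CPM in KD-Nap1l2, and 286 and 249 CPM in KD-Nap1l2-7day. After 7 days its log2 fold change was -0.26 (SE 0.20), and Slc7a3 was a near-silent carrier with 12 to 27 counts a library.

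The 12 cytosolic tRNA synthetases, which charge tRNAs with their amino acids, had small fold changes, above 0 for 11 of 12 at day 0 and for 12 of 12 after 7 days. Aars (chr8:111027778-111055569), the alanyl-tRNA synthetase, had 181 and 210 CPM in NC, 254 and 184 CPM in NC-7day, 268 and 230 CPM in KD-Nap1l2, and 430.3 and 328 CPM in KD-Nap1l2-7day. Its groups did not overlap at day 0 or after 7 days. The log2 fold change was 0.35 at day 0 (SE 0.21, adjusted p = 0.51 by edgeR) and 0.79 (SE 0.21) after 7 days. At day 0, 10 of the 12 had both KD-Nap1l2 libraries above both NC libraries (22% of all genes), and the median over the 12 was 0.37 on the log2 scale. The exceptions were Tars and Wars, the synthetases for threonine and tryptophan, whose libraries overlapped.

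**Figure D4:**
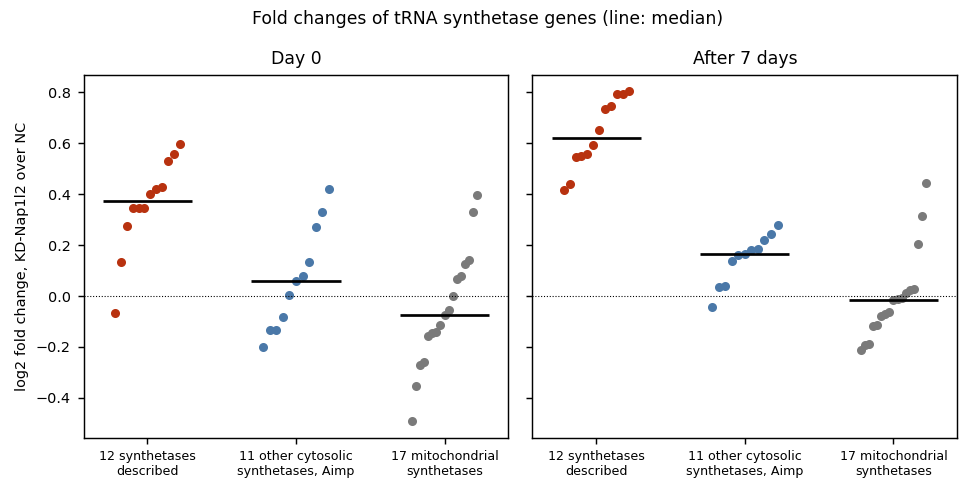
Log2 fold change of KD-Nap1l2 over NC libraries at day 0 (left) and after 7 days (right) for the 12 cytosolic synthetases described, the 11 other cytosolic synthetase and complex genes and the 17 mitochondrial synthetases; each point is a gene and lines are medians. The medians were 0.37, 0.059 and -0.076 at day 0, and 0.62, 0.17 and -0.016 after 7 days.

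Other synthetase genes, which were not among the 39, had smaller fold changes by their medians. The 11 other cytosolic synthetases and members of the multisynthetase complex had a median log2 fold change of 0.059 at day 0 (7 of 11 above 0), and the 17 mitochondrial synthetases a median of -0.076 (7 of 17 above 0). None of either list was called by edgeR or by DESeq2 in that comparison. There DESeq2 called 460 genes in both directions together, and 1.5% of all genes as higher. The largest values were 0.42 for Vars, the valine enzyme, and -0.49 for Sars2, the mitochondrial serine enzyme. After 7 days the medians were 0.17 (10 of 11) and -0.016 (6 of 17). The difference between the lists was not tested, since the 12 synthetases were chosen with these data known.

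Other genes of the pathway were described the same way at day 0. The 18 tested genes for eIF2 kinases, its phosphatase and its exchange factor, which lie above Atf4, had a median log2 fold change of -0.029 (8 of 18 above 0). Their largest value was -0.73 (SE 0.31, adjusted p = 0.362 by edgeR) for Eif2ak2, the kinase that senses double-stranded RNA. The other known Atf4 targets and partners had a median of 0.39 (15 of 18 above 0), with 2 called by DESeq2, Ddit4 and Eif4ebp1, both higher, and 0 by edgeR. Of these, Fgf21, a stress hormone, was close to the limit of detection with 0.22 and 0.051 CPM in NC, 0.59 and 0.57 CPM in KD-Nap1l2, and 0 CPM in NC-7day replicate 1, so that no fold is given.

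Among the other serine, one-carbon, proline and transsulfuration enzymes, the median at day 0 was 0.11 (13 of 24 above 0), and Aldh1l2, a mitochondrial folate enzyme, had the largest value. It had 47.0 and 45.7 CPM in NC and 93.5 and 236 CPM in KD-Nap1l2. Its log2 fold change was 1.83 (SE 0.51, adjusted p = 0.177 by edgeR). The other amino acid transporters had a median of 0.11 (9 of 17 above 0), and their largest value was -1.38 (SE 0.58) for Slc7a8, a gene under 1 CPM in all 8 libraries. DESeq2 called 2 of these transporters, both lower: Slc43a2, a carrier of large neutral amino acids (log2 fold change -0.89, adjusted p = 0.0011 by DESeq2 and 0.0775 by edgeR), and the taurine transporter Slc6a6 (-0.55, adjusted p = 0.0373 by DESeq2 and 0.186 by edgeR). The mTORC1 and amino acid sensor genes had a median of -0.11 (8 of 22 above 0), with Deptor, an inhibitor of mTOR, at 0.61 (SE 0.17, adjusted p = 0.191 by edgeR).

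After 7 days the same lists gave medians of 0.069 for the eIF2 genes, 0.57 for the other Atf4 targets, -0.25 for the other transporters, -0.046 for the other enzymes and 0.0081 for the mTORC1 genes. Their largest values were 0.87 (SE 0.39) for Ppp1r15a, which directs the eIF2 phosphatase, 1.34 (SE 0.37) for the glycine transporter Slc6a9, 1.34 (SE 0.50) for Aldh1l2 and 0.48 (SE 0.22) for Rragd, a Rag GTPase. For the other Atf4 targets the largest was Fgf21, close to the limit of detection, so that no fold is given. None of the genes on these lists was called by edgeR in either comparison of KD-Nap1l2 with NC. In all, edgeR called 11 genes at day 0 and 0 after 7 days. DESeq2 called the 4 genes counted above at day 0 and Slc6a9 after 7 days (adjusted p = 0.0422).

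In control cells, Mthfd2 was the gene called over the induction. Between NC and NC-7day, 30 of 38 had a log2 fold change above 0 (49.6% of all genes), with a median of 0.21, and the libraries were apart for 14 higher (29.4% of all genes) and 3 lower (28.4%). Without NC-7day replicate 1 the median was -0.013. By edgeR 1 gene rose, against 4.83% of all genes, and DESeq2 called 3 (Phgdh, Psat1 and Mthfd2), against 6.44%. Mthfd2, a mitochondrial folate enzyme, went from 24.0 and 33.1 CPM in NC to 68.0 and 65.0 CPM in NC-7day, with a log2 fold change of 1.22 (SE 0.21, adjusted p = 0.0133). It lost the call without NC replicate 1 (log2 fold change 1.01, adjusted p = 0.111). The next largest values were 1.18 (SE 0.59, adjusted p = 0.267 by edgeR) for Cth and 1.04 (SE 0.26, adjusted p = 0.0508 by edgeR) for Phgdh. That of Cth rested on NC-7day replicate 1, with 5.75 CPM against 1.73 CPM in replicate 2, and was 0.084 without it. The lowest were -0.90 (SE 0.40) for Pycr1, -0.43 (SE 0.25) for Atf5 and -0.36 (SE 0.43) for Ddit3, none of them called. Atf4 was at 0.020 (SE 0.21).

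In the KD-Nap1l2 cells, 33 of 38 genes had a log2 fold change above 0 from day 0 to day 7 (49.3% of all genes), with a median of 0.39, and 23 were apart as higher (30.8% of all genes). The median was 0.18 without KD-Nap1l2-7day replicate 1 and 0.59 without its replicate 2. The stress effectors had the largest median, 1.05. By edgeR 3 genes rose, against 6.84% of all genes. They were Atf3 at 1.18 (SE 0.31, adjusted p = 0.0416), Mthfd2 at 0.98 (SE 0.20, adjusted p = 0.0199) and Wars at 1.20 (SE 0.27, adjusted p = 0.0269), all by edgeR. Wars had 63.4 and 53.9 CPM in KD-Nap1l2 and 151 and 119 CPM in KD-Nap1l2-7day. The calls of Atf3 and Wars were lost when any 1 of the 4 libraries was left out, with log2 fold changes that stayed between 1.09 and 1.28 and between 1.03 and 1.36. That of Mthfd2 was lost without KD-Nap1l2 replicate 2 or KD-Nap1l2-7day replicate 1 (adjusted p = 0.0765 and 0.137 by edgeR).

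Atf4 was at 0.73 (SE 0.21) in that comparison and just missed the threshold, with an adjusted p of 0.0519 by edgeR and 0.0066 by DESeq2. Nupr1 had the largest value, 1.35 (SE 0.49), and Slc7a11 was at 1.20 (SE 0.69), neither called. Without KD-Nap1l2 replicate 2 Nupr1 was at 2.17, and without replicate 1 it was at 0.83. Slc7a11 was at 0.53 without KD-Nap1l2 replicate 2 and at 2.50 without replicate 1. The lowest values were -0.36 (SE 0.21) for Cebpg, -0.24 (SE 0.20) for Slc38a2 and -0.23 (SE 0.38) for Pycr1. DESeq2 called 7 of the 38 as higher, against 8.45% of all genes.

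Whether induction differed between control and KD-Nap1l2 cells was tested as the difference of the 2 induction comparisons. None of the 38 was called by edgeR or by DESeq2, which called 0% and 0.51% of all genes as higher. In both directions together DESeq2 called 98 genes. At an unadjusted p under 0.05 by edgeR there were 2 of the 38, Atf4 and Atf5, against 3.5% of all genes as higher. This difference contains the 7-day comparison behind the choice of genes, so nothing is read from that count, and the values are a description. The largest were 1.06 (SE 0.77) for Trib3, 0.99 (SE 0.36) for Atf5 and 0.87 (SE 0.38) for Wars, and Atf4 was at 0.71 (SE 0.29). Among the genes averaging at least 50 counts, the lowest were -0.57 (SE 0.27) for Psat1, -0.33 (SE 0.28) for Slc38a2 and -0.32 (SE 0.37) for Phgdh. Slc7a3, which had fewer counts, was at -1.17 (SE 0.58). Trib3 was at 0.44 without NC-7day replicate 2 and at 2.14 without replicate 1, Wars at 0.48 without NC replicate 2, and Phgdh at -0.00050 without NC replicate 1. The median was 0.23 over the 38 genes and -0.019 over all genes, and it was -0.022 without KD-Nap1l2-7day replicate 1, 0.0059 without NC-7day replicate 2 and 0.50 without NC-7day replicate 1.

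The pathway lists were also counted over the induction. On the log2 scale, the other Atf4 targets had 1 gene called by edgeR in control cells, Cebpb, a partner of Atf4 that rose by 1.36, and 4 in KD-Nap1l2 cells: Cebpb (1.77), Sqstm1 (1.12) and Got1 (0.76) rose, and Cebpa fell (-2.40). The eIF2 genes had 0 and 1 called, the latter Eif2b2, a subunit of the exchange factor, at 1.07. In control cells Eif2b2 was at 0.71 (adjusted p = 0.0509 by edgeR and 0.00915 by DESeq2). Of the other enzymes, glutamine synthetase Glul and the glutathione enzyme Gclc rose by 3.12 and 2.78 in control cells and by 2.52 and 2.82 in KD-Nap1l2 cells. Gclm and Gss were called in KD-Nap1l2 cells only, at 1.12 and 0.52, but their control libraries were also apart as higher. Gclm had 18.9 and 21.5 CPM in NC and 37.5 and 29.1 CPM in NC-7day. Gss had 19.6 and 18.7 CPM in NC and 24.6 and 26.2 CPM in NC-7day. Over the same lists the mTORC1 genes had 4 genes called higher and 1 lower in control cells and 6 and 1 in KD-Nap1l2 cells, with Deptor the largest at 2.74 and 2.05. The other transporters had 3 called higher and 1 lower, and 5 and 3, with the largest values 2.36 for the glutamate transporter Slc1a2 and -1.83 for Slc1a3. Among the other cytosolic synthetases, Rars rose in KD-Nap1l2 cells (0.59). These calls are by edgeR at an adjusted p of 0.05, which 4.83% and 6.84% of all genes passed as higher. As lower, 455 of the 13470 genes tested passed it in control cells and 991 in KD-Nap1l2 cells. In the difference of the induction comparisons, none of the genes of these lists was called by edgeR or by DESeq2.

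Within the 7-day groups most of the 38 genes also differed in 1 direction between the replicates. In NC-7day, replicate 1 was above replicate 2 for 33 of 38 genes, with a median difference of 0.36 in log2 CPM, against 0.0100 over all genes. In KD-Nap1l2-7day it was above for 36 of 38, by a median of 0.43, against -0.0017. In NC the count was 15 of 38, by a median of -0.069, and in KD-Nap1l2 it was 22 of 38, by 0.15. The 3 tested stress effectors differed most, by a median of 1.65 in NC-7day, where replicate 1 was higher for 3 of 3, and by -1.18 in KD-Nap1l2, where it was higher for 0 of 3. The 12 synthetases were all higher in replicate 1 of both 7-day groups, by 0.35 and 0.38.

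**Figure D5:**
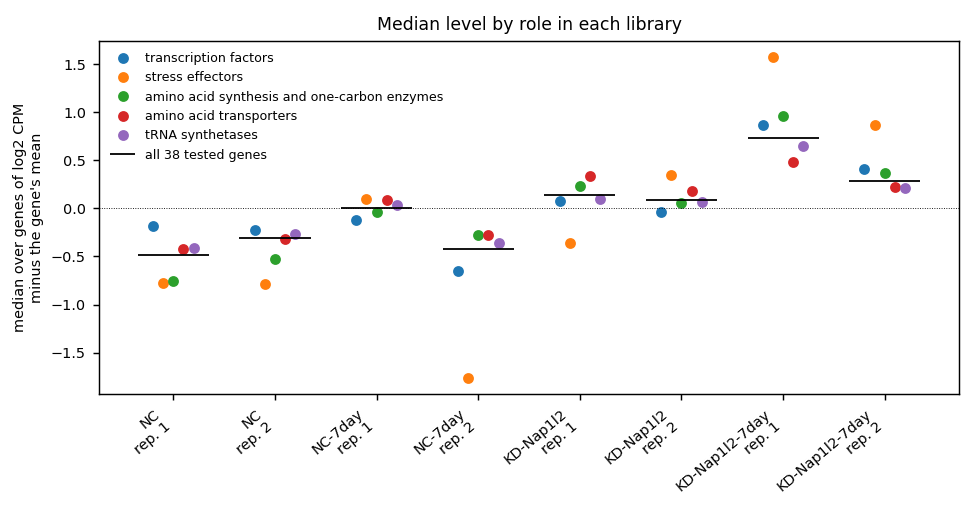
Median over the genes of each role (points) and over the 38 tested genes (lines) of log2 CPM minus the gene's mean, in each library. The lines lie at -0.48 and -0.30 in NC, 0.0100 and -0.43 in NC-7day, 0.14 and 0.086 in KD-Nap1l2, and 0.73 and 0.29 in KD-Nap1l2-7day.

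By the median over the 38 genes, NC-7day replicate 1 was nearer to the KD-Nap1l2 libraries than to its own replicate, while each KD-Nap1l2 library still lay above each NC library at day 0 and each KD-Nap1l2-7day library above each NC-7day library. By role, the stress effectors had the widest range, from -1.77 in NC-7day replicate 2 to 1.58 in KD-Nap1l2-7day replicate 1.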

How the data were processed

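RNA of C3H10T1/2 cells was extracted with Trizol, and libraries were made and sequenced by BGI. The authors deposited, per gene and per transcript, estimated counts and a length-scaled value that is read here as FPKM from its sums and its relation to the counts. The submitters' processing notes name BWA, Bowtie2, RSEM and the build GRCm38.p6, with versions not given in the sources used here. The deposited tables of the authors' own comparisons (log2 fold changes and p-values) were not used.

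Counts were rounded (41.1% of genes had a count that was not whole) and fitted with edgeR 4.0.16 in R 4.3.3: TMM scaling, filterByExpr with its defaults, 1 group term over all 8 libraries, the quasi-likelihood test and Benjamini-Hochberg adjustment over 13470 genes. The standard error is the absolute log2 fold change divided by the root of F. A call is an adjusted p under 0.05. DESeq2 1.42.0, limma 3.58.1 on log2 FPKM, other filters and scalings, and fits without each library were alternatives. The fit was tested on simulated data. The 39 genes and the lists were chosen with earlier results of these data known. Values in every library are given for Atf4, Ddit3, Trib3, Chac1, Asns, Psat1, Slc7a11 and Aars and, per comparison, fold changes for the 3 genes highest and lowest among those averaging at least 50 counts; other genes named with values illustrate their role and were chosen after their values were seen. The genes named from a list are among those called or had the largest value of the list. Figures were drawn with matplotlib.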

Additional observations from a re-analysis of the deposited data

How the results depend on the processing

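The direction of the median over the 38 genes was unchanged in each comparison under DESeq2, RLE size factors, other filters, limma on log2 FPKM, the fits of the compared libraries alone (not made for the difference of the induction comparisons) and the replicate block. The number of genes called depended on the tool: DESeq2 called 3 in NC-7day against NC, 7 in KD-Nap1l2-7day against KD-Nap1l2, 7 in KD-Nap1l2 against NC and 10 in KD-Nap1l2-7day against NC-7day, where edgeR called 1, 3, 0 and 0. Without a filter on low counts edgeR called 3 in the first, 4 in the second, with Atf4 added, and 1, Psat1, at day 0. Leaving out 1 library changed which genes were called in NC-7day against NC, in KD-Nap1l2-7day against KD-Nap1l2 and in KD-Nap1l2 against NC. Such a fit leaves 1 library in a group, so its calls are not counted here. The median over the 38 genes was -0.013 to 0.38, 0.18 to 0.59 and 0.45 to 0.58 in these 3 comparisons, in that order. From day 0 to day 7 the direction of Slc1a4 depended on which KD-Nap1l2 library was left out. It had 43.1 and 117 CPM in KD-Nap1l2, and 84.5 and 69.5 CPM in KD-Nap1l2-7day. The median of the difference of the induction comparisons ranged from -0.022 to 0.50. For Nap1l2 the fold change at day 0 ranged from -0.53 to 1.30 and after 7 days from -0.64 to 1.08, with 0.0017 under RLE size factors.

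Leaving out 1 library also turned the sign of some genes that were not called in the fit of all 8 libraries. Signs were followed only for genes and comparisons picked for the text, so this list is not complete. In NC-7day against NC they were Atf4 (-0.19 to 0.21) and Ddit3 (-0.91 to 0.035). In KD-Nap1l2-7day against KD-Nap1l2 they were Cebpg (-0.66 to 0.019), Slc38a2 (-0.51 to 0.099) and Pycr1 (-0.91 to 0.23). In KD-Nap1l2 against NC they were Atf5 (-0.19 to 0.13), Ddit3 (-0.36 to 0.97) and Wars (-0.37 to 0.32). In the difference of the induction comparisons, Slc38a2 turned (-0.60 to 0.0094). The replicates of different groups share only a number, with correlations of their deviations from -0.092 to 0.12. With the replicate number as a block, Atf4 was also called in KD-Nap1l2-7day against KD-Nap1l2 (log2 fold change 0.71, adjusted p = 0.0356), giving 4 calls in place of 3, and the counts in the other comparisons were as without the block. With 2 libraries a group, genes such as Slc7a3 and Stc2, with few counts, could not be followed.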
